A study of Hormonema carpetanum with 4 samples.

Results

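The mutant strain ENF-5-29 of Hormonema carpetanum was compared between day 18 of fermentation at 25 °C and day 14, using 2 of the 4 RNA-seq libraries of the study. This filamentous fungus produces enfumafungin, a glycosylated triterpene that blocks the beta-glucan synthase of fungal cell walls, and ENF-5-29 was derived from the wild-type strain ATCC 74360 by mutagenesis, with enfumafungin production as the aim. The other libraries, wild type at day 14 and mutant at day 18 and 19 °C, are given as reference values. RNA came from mycelium in fermentation broth. The sample titles give no temperature for day 14, so day and temperature cannot be told apart here, and where the titles say day 14 the protocol for RNA extraction names 18 days, for either strain. Each group had 1 library, so the differences below could not be checked against replicates and carry no p-value.

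Values are TPM, a transcript abundance that divides the reads of a gene by its length and scales each library to 1000000. Read depth is not kept in this unit, so the counting error is unknown. A log2 ratio is the difference of log2(TPM + 1), day 18 at 25 °C minus day 14, which understates the change of low genes. A fold is the plain ratio of 2 TPM values. Tested genes had 1 TPM or more in either library, which held for 9236 of 10951 genes, and those with a ratio of 2-fold or more on the log2 scale are called higher or lower. Gene names are those of the best database hit in the deposited table and are no evidence of an identical function.

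Hyphae take up iron with siderophores, small iron chelators that are built, exported and brought back by dedicated enzymes and transporters, or by a plasma membrane pair of an iron permease and a copper oxidase. Calcium entering the cytosol activates the phosphatase calcineurin and through it the transcription factor Crz1, which is known in yeast and moulds for switching on calcium pumps and cell wall genes. The wall itself is a mesh of beta-1,3-glucan, made by the Fks1 synthase, and chitin, made by a family of chitin synthases. Enfumafungin is built from the mevalonate pathway by enzymes of the efu gene cluster.

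At day 18 and 25 °C 1303 genes were higher (14.1% of those tested) and 2249 lower (24.4%). A ratio of 4-fold or more was seen for 407 genes in the higher direction and 432 in the lower. The median log2 ratio was -0.30, and that negative value depends on the scaling. After rescaling the libraries by their median ratio over 7805 genes, the median moved by 0.32 to 0.02, and the calls became 1806 higher (19.6%) and 1364 lower (14.8%). Higher genes thus made up 36.7% of the calls as deposited and 57.0% after rescaling. The counts below are for the deposited values, and list medians can be read against the -0.30 of all genes.

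**Figure D1:**
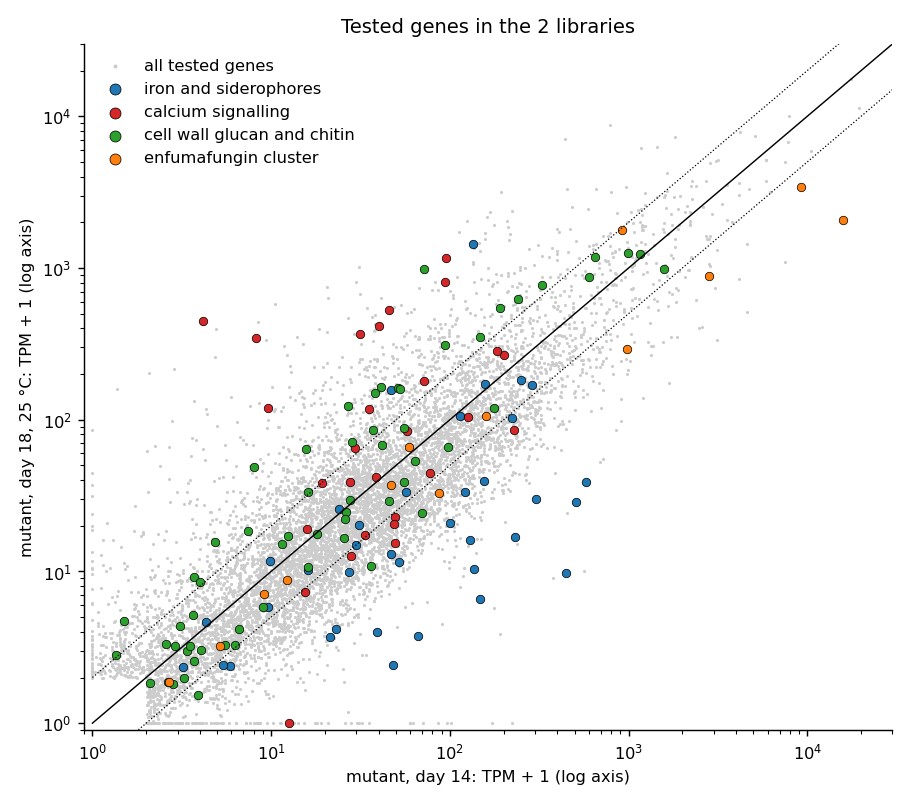
Each point is a tested gene, with TPM + 1 at day 14 on the x axis and at day 18 and 25 °C on the y axis, both log axes. The solid line marks equality and the dotted lines a ratio of 2-fold. Iron genes (blue) lie mostly below the lower dotted line, a set of calcium genes (red) lies far above the upper one, and the highest enfumafungin cluster genes (orange) lie below.

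Within each direction, iron uptake genes had the largest share of lower members, and calcium and cell wall genes had the largest shares of higher members. Among 42 gene lists the share of lower members was highest for iron and siderophores, at 59.5%, followed by sugar transporters at 42.2% and cytochrome P450 genes at 41.2%. The share of higher members was highest for calcium signalling, at 39.3%, followed by cell wall glucan and chitin genes, at 36.1%. More members were higher than lower in 12 lists and more were lower than higher in 26. After the median-ratio rescaling this majority turned in 9 lists, which were DNA replication, transfer RNA ligases, citrate and glyoxylate cycles, antioxidant enzymes, ABC transporters, secreted peptidases, lipases and cutinases, zinc cluster transcription factors, and sporulation and surface proteins.

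**Figure D2:**
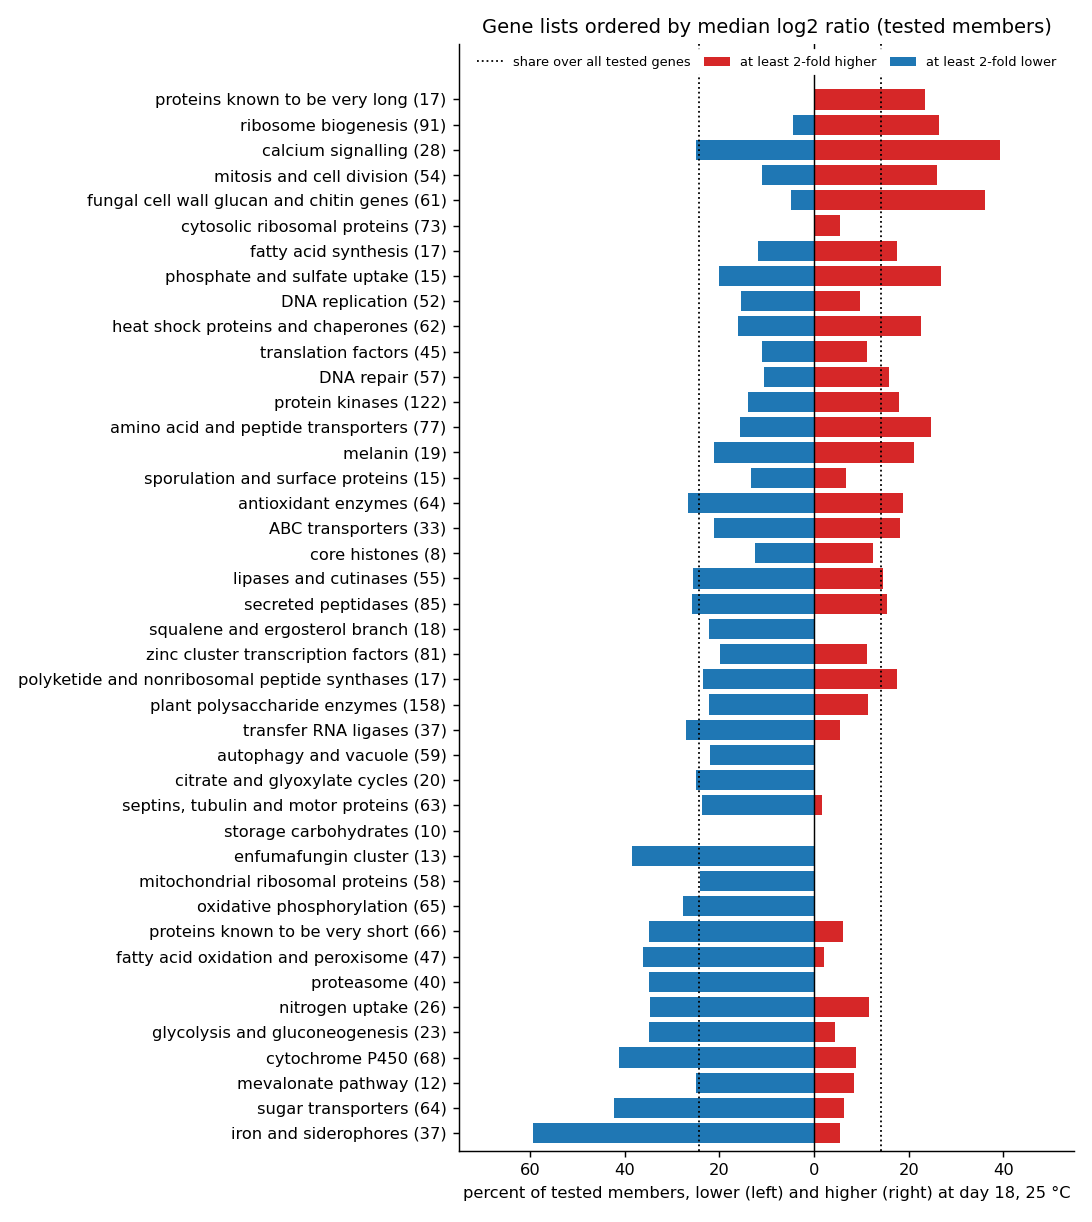
Each row is a gene list with its number of tested members in parentheses. Red bars give the percent of members at least 2-fold higher at day 18 and 25 °C, blue bars the percent at least 2-fold lower, and dotted lines the 14.1% and 24.4% over all tested genes. Iron and siderophores reach 59.5% lower, and calcium signalling 39.3% higher.

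Iron genes had the largest share of lower members. Of 37 tested members 22 were lower and 2 higher, and the list median was -1.46 as deposited and -1.11 after rescaling. The siderophore transporter mirB (gene04089) stood at 443 TPM at day 14 and 8.82 TPM at day 18 and 25 °C, 50.2-fold lower. It was at 3.58 TPM at 19 °C and 400.3 TPM in the wild type, so both day 18 libraries were low and both day 14 libraries high. Another siderochrome transporter (gene05563) showed the same order, at 147 TPM at day 14 and 5.62 TPM at day 18 and 25 °C, with 1.82 TPM at 19 °C and 191 TPM in the wild type. Its neighbour in gene number (gene05564) stood at 65.7 and 2.73 TPM. Of 8 siderophore transporter hits 6 were lower and 0 higher. The exceptions were a second pair of siderochrome transporters, gene04222 at 114 and 105 TPM and gene00502 at 8.82 and 10.8 TPM.

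Enzymes that build siderophores were low as well. Ornithine monooxygenase catalyses the first step, and its 2 hits, gene02221 and gene08450, stood at 231 and 15.8 TPM and at 304 and 28.8 TPM. The acyl-CoA ligase sidI (gene02222), which in Aspergillus activates the side chain of the extracellular siderophores, stood at 128 and 15.04 TPM. A run of 6 consecutive gene numbers, gene04085 to gene04090, was lower throughout. The acetyltransferase sidF (gene04085) stood at 37.9 and 3.01 TPM, the hydratase sidH (gene04086) at 46.9 and 1.43 TPM and the peptide synthetase sidD (gene04087), which joins the parts of the siderophore, at 22.01 and 3.20 TPM. An ABC transporter (gene04088) stood at 89.4 and 3.53 TPM and the esterase sidJ (gene04090), which releases iron from the siderophore in Aspergillus, at 136 and 9.41 TPM. Among 13 synthesis and release hits 10 were lower and 0 higher, with a summed level of 1238 TPM at day 14 and 184 TPM at day 18 and 25 °C. The summed level was 238 TPM at 19 °C and 1234 TPM in the wild type. The synthetase for intracellular siderophores (gene08452, the KEGG term SIDC) stayed within 2-fold, at 8.65 and 4.84 TPM. An ABC transporter next to it in gene number (gene08451) stood at 18.9 and 0.92 TPM.

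The reductive route showed the same direction. The iron permease ftrA (gene06901) stood at 577 TPM at day 14 and 37.97 TPM at day 18 and 25 °C, 15.2-fold lower. Its partner, the oxidase fetC (gene06902), stood at 509 and 27.9 TPM, 18.2-fold lower. The regulator hapX (gene10569), which in Aspergillus represses iron-using pathways and activates siderophore synthesis during iron starvation, stood at 98.8 and 19.9 TPM. It was at 12.9 TPM at 19 °C and 34.1 TPM in the wild type. Ferric reductases, which reduce iron before uptake, were mixed, with 1 of 9 higher and 2 lower.

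The 2 members that were higher were a ferric reductase and a hemophore. The ferric/cupric reductase gene07076 stood at 45.6 TPM at day 14 and 156 TPM at day 18 and 25 °C, 3.42-fold higher, below the 478 TPM of the wild type. The hemophore cfmA (gene05828), a surface protein of a family that binds heme, stood at 135 TPM at day 14 and 1445 TPM at day 18 and 25 °C, 10.7-fold higher. It was at 254 TPM at 19 °C and 28.9 TPM in the wild type, so the 25 °C library was the highest of the 4. Another hit of the same name (gene05975) was low in both, at 4.35 and 1.41 TPM.

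**Figure D3:**
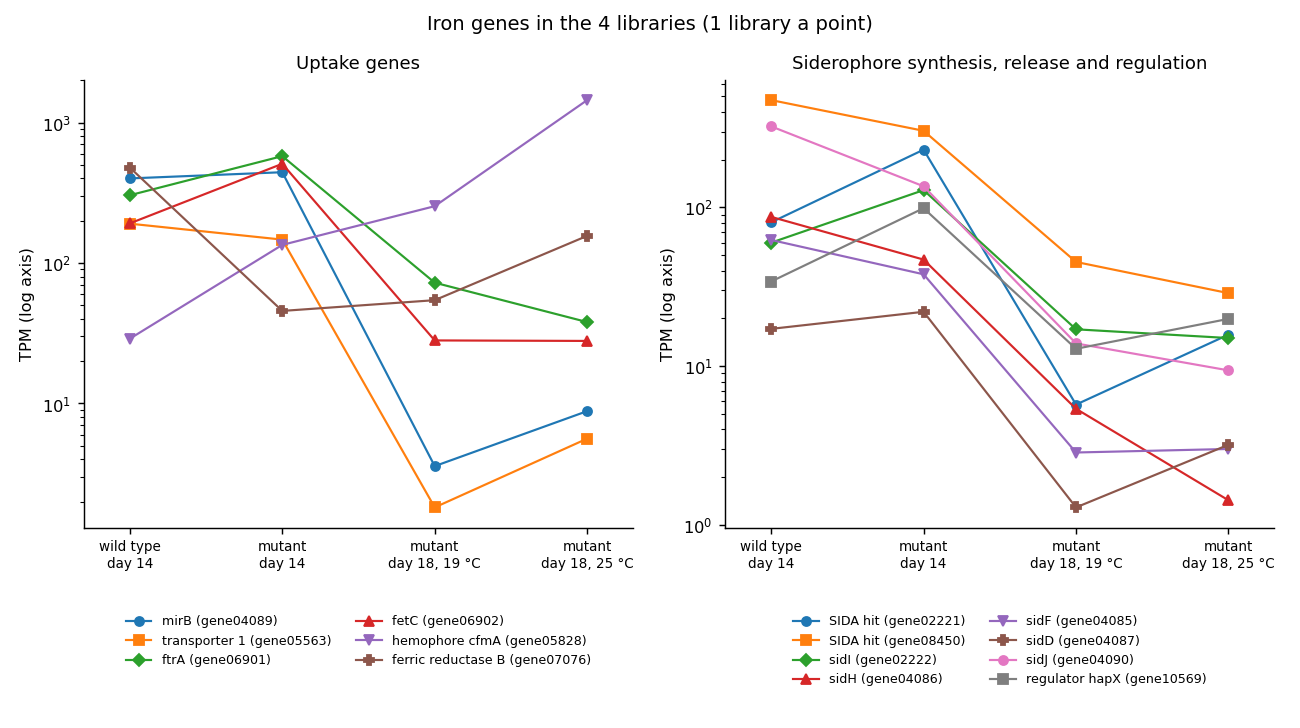
TPM on a log axis of iron uptake genes (left) and of siderophore synthesis, release and regulation genes (right) in the 4 libraries, 1 library a point; lines join the values of a gene. The plotted genes lie lower in both day 18 libraries than in the mutant at day 14, except the hemophore cfmA, at 1445 TPM at 25 °C, and ferric reductase B.

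Calcium genes were higher in part. The gene with the largest ratio in the list had the calcineurin-dependent regulator CRZ1 as its best hit (gene07846) and stood at 3.15 TPM at day 14 and 447 TPM at day 18 and 25 °C, 142-fold higher. It was at 13.8 TPM at 19 °C and 0.72 TPM in the wild type. The table lists no protein domain for it. A zinc finger factor of the crzA type (gene04235), with the same KEGG term as yeast Crz1, stood at 34.4 TPM at day 14 and 118 TPM at day 18 and 25 °C, 3.42-fold higher. It was at 40.8 TPM at 19 °C and 9.92 TPM in the wild type. Both were highest in the 25 °C library.

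Several pumps and exchangers that clear calcium from the cytosol were high. The vacuolar calcium transporter gene07236 stood at 93.9 TPM at day 14 and 1156 TPM at day 18 and 25 °C, 12.3-fold higher, and another (gene07108) at 71.2 and 179.8 TPM. The others at 1 TPM or more, gene01668 and gene03251, stayed within 2-fold at 199 and 267 TPM and at 56.5 and 83.03 TPM. Of the calcium-transporting ATPases, gene00338 stood at 39 and 414 TPM and gene08022 at 8.64 and 119 TPM. The pump of the sarcoplasmic or endoplasmic reticulum type (gene02512) stood at 28.3 and 63.9 TPM, and calcium-transporting ATPase 1 (gene00788), at 26.8 and 37.9 TPM, did not reach 2-fold. A cation ATPase (gene07299), named after an animal potassium pump and with the KEGG term of sodium and potassium ATPases, stood at 7.27 TPM at day 14 and 346 TPM at day 18 and 25 °C, 47.6-fold higher. It was at 40.4 TPM at 19 °C and 7.80 TPM in the wild type.

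Other members with a link to calcium were split. Annexin C1 (gene07637), of a family that binds membranes in a calcium-dependent way, stood at 92.5 TPM at day 14 and 814 TPM at day 18 and 25 °C, 8.80-fold higher, while annexin A6 (gene02646) stood at 32.5 and 16.4 TPM, just within 2-fold. Tricalbin (gene05953), which tethers the endoplasmic reticulum to the plasma membrane in yeast, stood at 30.4 and 365 TPM. The protease hit calpain-9 (gene00793) stood at 44.4 and 528 TPM, whereas the calpain-like protease palB (gene01527) was lower, at 26.9 and 11.6 TPM. A gene outside this list (gene09835) had the E3 ligase Nedd-4 as its best hit, and the table lists only a calcium-binding EF-hand domain for it. It stood at 7.43 TPM at day 14 and 443 TPM at day 18 and 25 °C, 59.6-fold higher.

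The calcineurin subunit and the kinase and channel hits of the list were lower or, on the log2 scale, within 2-fold as deposited. The regulatory subunit B of calcineurin (gene04517) stood at 229 TPM at day 14 and 84.05 TPM at day 18 and 25 °C, 2.72-fold lower. Of 5 calmodulin-dependent kinase hits 2 were lower and 0 higher, the kinase kinase gene05281 at 48.1 and 14.4 TPM and gene01070, at 11.6 TPM at day 14 and listed at 0 at 25 °C and in the wild type. Of 4 calcium channel hits of the yeast vacuolar type 2 were lower and 0 higher. After rescaling these 2 channel hits fell within 2-fold. The channel hit gene07119 and the kinase cmkA (gene03684) then passed 2-fold upward, at log2 ratios of 1.33 and 1.01. As deposited they stood at 18.3 and 37.15 TPM and at 182 and 285 TPM. In all, 11 of 28 tested calcium genes were higher and 7 lower, or 13 higher and 3 lower after rescaling, and the list median was 0.52 as deposited and 0.87 after rescaling.

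Part of the other pumps and ion transporters was high too. Of 16 tested genes with an E1-E2 ATPase domain, the core of P-type pumps, 10 were higher and 0 lower. Over all tested genes the shares were 14.1% and 24.4%. The group was chosen after its values were seen, and 4 of the 10 are pumps of the calcium list described above. The plasma membrane ATPase (gene03628), the proton pump that energises nutrient uptake, stood at 471 TPM at day 14 and 1816 TPM at day 18 and 25 °C, and at 899 TPM at 19 °C and 1005 TPM in the wild type. The phospholipid flippase DNF1 (gene08386) stood at 34.1 and 143 TPM and a copper-transporting ATPase (gene06568) at 15.9 and 91.9 TPM. Potassium transporter 5 (gene00392) stood at 35.7 TPM at day 14 and 472 TPM at day 18 and 25 °C, 13.2-fold higher, and the potassium channel TOK1 (gene05826) at 8.04 and 51.2 TPM. The kinase hal4 (gene09056), known in yeasts for salt tolerance, stood at 53.8 and 292 TPM. Another hal4 hit (gene07438) was within 2-fold, at 80.7 and 121 TPM, with 972 TPM in the wild type.

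Part of the wall synthesis genes was higher. Of 61 tested genes of fungal cell wall glucan and chitin 22 were higher, 3 lower and 36 within 2-fold, with a median of 0.38 as deposited and 0.70 after rescaling. The summed level was 7227 TPM at day 14 and 10902 TPM at day 18 and 25 °C, against 5620.5 TPM at 19 °C and 17782 TPM in the wild type. The beta-1,3-glucan synthase FKS1 (gene05336), whose enzyme class is the target of enfumafungin, stood at 93.2 TPM at day 14 and 311 TPM at day 18 and 25 °C, 3.33-fold higher. It was at 104 TPM at 19 °C and 211 TPM in the wild type. The glucanosyltransferase next to it in gene number (gene05335), of a family that elongates glucan chains, stood at 146 and 349 TPM. Among 6 glucanosyltransferase hits 2 were higher and 1 lower, the lower one being gel1 (gene08720) at 69.1 and 23.3 TPM.

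Chitin synthases were higher or within 2-fold. Of 9 hits 6 were higher and 0 lower, and all 3 hits of chitin synthase regulators were higher. Chitin synthase D (gene06387) stood at 7.06 and 47.9 TPM. Chitin synthase 8 (gene06462) and chitin synthase 6 (gene06463), consecutive in gene number, stood at 37.05 and 148 TPM and at 40.4 and 164 TPM. Another pair with consecutive numbers was high as well. Chitin synthase 4 (gene07517) stood at 51.3 and 158 TPM, and the regulator next to it (gene07516) at 36.3 and 84.6 TPM. The other regulators, gene01719 and gene08529, stood at 25.8 and 121 TPM and at 14.7 and 63.1 TPM. Chitin deacetylase (gene05100), which turns chitin into chitosan, had the lowest ratio of the list, at 35.2 and 9.84 TPM.

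Enzymes that cross-link or cut the wall were mixed. The crf1 glycosidase (gene04932), of a family that links chitin to glucan, stood at 70.8 TPM at day 14 and 984 TPM at day 18 and 25 °C, 13.9-fold higher, and crf2 (gene03874) at 189.6 and 545 TPM. Of 7 tested chitinase hits 3 were higher and 0 lower, and their median of -0.43 lay below that of all genes. The most abundant members were closer to equal, with the glycosidase gene03195 at 1587 and 992 TPM and SCW10 (gene05623) at 1165 and 1243 TPM. Kinases of wall and osmotic signalling differed from each other. The wall integrity kinase mpkA (gene07743) stood at 163 TPM at day 14 and 1005 TPM at day 18 and 25 °C, 6.18-fold higher, with 96.3 TPM at 19 °C and 85.2 TPM in the wild type. PBS2 (gene09940), the kinase above Hog1 in the osmotic pathway, stood at 66.05 and 262 TPM, and wis4 (gene07363), the kinase above it in fission yeast, at 26.6 and 61.6 TPM. The osmotic kinase Hog1 (gene06384) itself was within 2-fold, at 209.8 and 173 TPM. So were the kinases usually placed above mpkA, namely mkk2 (gene09126) at 33.05 and 64.01 TPM, bck1 (gene05491) at 7.03 and 4.97 TPM and the protein kinase C hit (gene06937) at 53.97 and 63.6 TPM. After rescaling mkk2 passed 2-fold upward, at a log2 ratio of 1.28. These kinases were picked after their values were seen. Among all 122 tested protein kinases 22 were higher (18.0%) and 17 lower (13.9%).

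**Figure D4:**
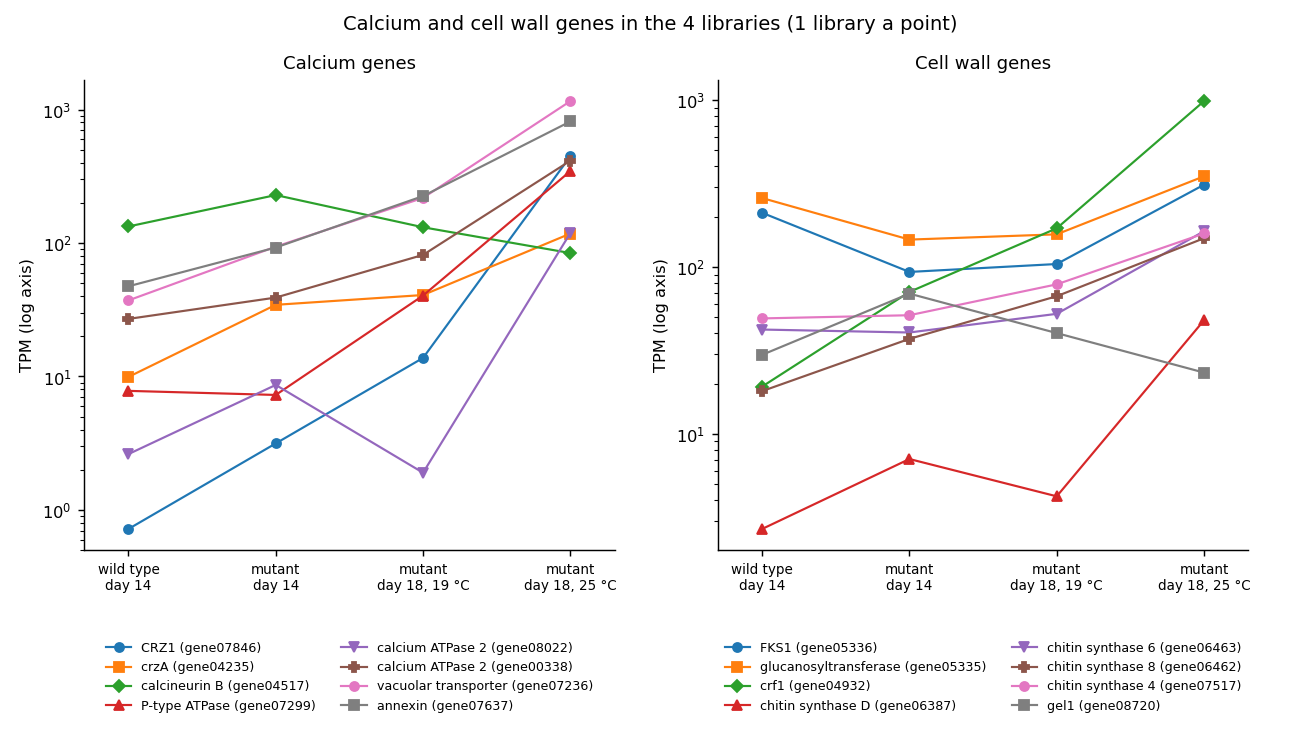
TPM on a log axis of calcium genes (left) and of cell wall genes (right) in the 4 libraries, 1 library a point; lines join the values of a gene. The plotted genes are highest in the mutant at day 18 and 25 °C, except calcineurin B at 84.05 TPM and gel1 at 23.3 TPM.

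Lists of long and short proteins differed too, and TPM divides by length. A list of very long proteins, such as dynein and midasin, had 17 tested genes, of which 4 were higher and 0 lower, and its median was 0.74. A list of very short proteins had 66, of which 4 were higher and 23 lower, and its median was -0.67. P-type pumps and chitin and glucan synthases are long proteins, while proteasome and respiratory subunits are mostly short, and the part of length in these results was not tested.

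The enfumafungin cluster was lower in its most abundant genes. Of 13 genes with an efu hit in the stretch gene04127 to gene04142, 5 were lower (38.5%, against 24.4% of all genes) and 0 higher at 2-fold. Their median of -0.60 became -0.29 after rescaling. Their summed level was 30127 TPM at day 14 and 8724 TPM at day 18 and 25 °C, with 14842 TPM at 19 °C and 538 TPM in the wild type. The enfumafungin synthase efuA (gene04134), which makes the triterpene core and attaches its sugar, stood at 2829 TPM at day 14 and 887 TPM at day 18 and 25 °C, 3.19-fold lower. The hydroxylase efuI (gene04131) was the most abundant cluster gene at day 14, at 15829 TPM, and stood at 2069.9 TPM at day 18 and 25 °C. The P450 enzymes efuG (gene04133) and efuH (gene04132), which oxidise the core, stood at 9193 and 3437 TPM and at 981 and 289.6 TPM. A gene with the transporter efuK as its best hit (gene04128), whose listed domains are hydrolase domains, stood at 85.6 and 31.7 TPM. The other efuK hit (gene04129), with an oxysterol-binding domain, was within 2-fold, at 8.13 and 6.14 TPM. Each of the 5 lower genes stayed above its wild-type value, which was 31.6 TPM for efuA.

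Other cluster genes did not follow. The self-resistance gene efuJ (gene04130) stood at 921 TPM at day 14 and 1787 TPM at day 18 and 25 °C, a log2 ratio of 0.95 that passed 2-fold only after rescaling, at 1.32. It was at 90.1 TPM at 19 °C and 71.6 TPM in the wild type. The transcription factor efuD (gene04140) stood at 58.3 and 64.7 TPM and the acetyltransferase efuC (gene04141) at 46 and 36 TPM. The reductase efuL (gene04127) stood at 159 and 105 TPM, and the models of efuB, efuE and efuF and the second of efuK were at 11.2 TPM or less in both libraries. Outside the stretch, another efuI hit (gene06638) went the other way, at 56.6 TPM at day 14 and 505 TPM at day 18 and 25 °C, 8.92-fold higher, with 704 TPM at 19 °C and 429 TPM in the wild type. A P450 of the efuB type (gene05027) stood at 466 and 275 TPM.

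**Figure D5:**
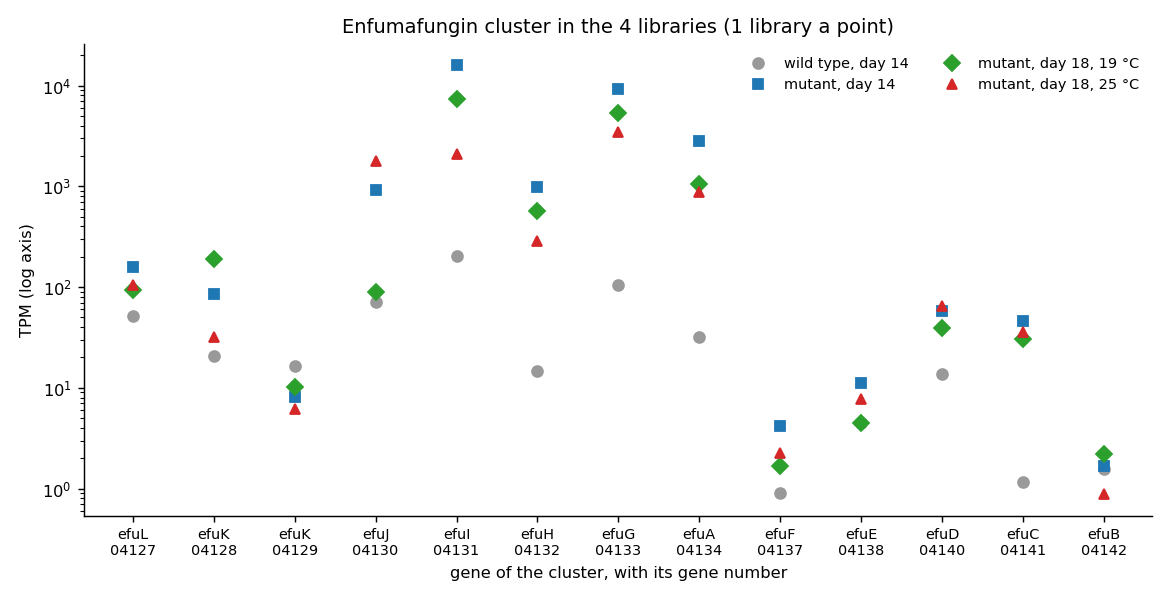
TPM on a log axis of the 13 efu genes in the 4 libraries, in the order of gene numbers, 1 library a point. For efuI, efuH, efuG and efuA the mutant at day 18 and 25 °C (red triangles) lies below the mutant at day 14 (blue squares) and above the wild type, while efuJ is highest at 25 °C, at 1787 TPM.

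Genes of precursor supply were split. The HMG-CoA reductase gene03104, the rate-limiting enzyme of the mevalonate pathway, stood at 67.3 and 155 TPM. A second reductase hit (gene06242) stood at 11.01 and 2.72 TPM, beside the geranylgeranyl pyrophosphate synthase gene06243 at 11.9 and 2.47 TPM. Farnesyl pyrophosphate synthase (gene10535), which makes the precursor of squalene, stood at 172 and 54.9 TPM. Of 12 tested mevalonate genes 1 was higher and 3 lower (25.0%), and of 18 squalene and ergosterol genes 0 were higher and 4 lower (22.2%). Both lower shares were near the 24.4% of all genes. Squalene synthase (gene09579) stood at 79.1 and 55.2 TPM and lanosterol synthase (gene10489), the competing cyclase of ergosterol synthesis, at 22 and 13.2 TPM, both within 2-fold. The C-8 sterol isomerase (gene09371) stood at 133 and 40.4 TPM. P450 genes as a list had 6 of 68 members higher and 28 lower, efuG and efuH among them, and after rescaling 7 higher and 13 lower. The P450 with the largest ratio was virE (gene07980), at 6.57 and 123 TPM, and the oxylipin enzyme PpoA (gene06203) stood at 29.97 and 238 TPM. Another PpoA hit (gene05727) was within 2-fold, at 6.40 and 4.34 TPM.

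Many sugar transporters were lower. Of 64 tested members 4 were higher and 27 lower, or 6 higher and 18 lower after rescaling, with a median of -0.80 as deposited and -0.49 after rescaling. The glycerol and proton symporter STL1 (gene08920) stood at 1199 TPM at day 14 and 138 TPM at day 18 and 25 °C, 8.70-fold lower. A quinate permease (gene05918) stood at 377 and 8.04 TPM, 46.9-fold lower, and of 13 quinate permease hits 6 were lower and 0 higher. The regulator of quinate use (gene01644) stood at 33.1 and 6.90 TPM. The most abundant member, the low-affinity glucose transporter HXT1 (gene10408), stood at 1135 and 2429.7 TPM, against 4897 TPM in the wild type. A transporter of the ecdD type (gene01802) stood at 10.8 and 305 TPM.

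Few genes of central metabolism were higher, and their lower shares were in part those of all genes. Glycolysis and gluconeogenesis had 1 of 23 members higher and 8 lower, fatty acid oxidation and peroxisomes 1 of 47 higher and 17 lower, and oxidative phosphorylation 0 of 65 higher and 18 lower. After rescaling these lists had 1 higher and 6 lower, 1 higher and 10 lower, and 1 higher and 11 lower, respectively. Glyceraldehyde-3-phosphate dehydrogenase (gene08348) stood at 2818 and 1565 TPM. An aldolase hit (gene01672) stood at 907 and 137 TPM and the acyl-CoA dehydrogenase gene09334 at 628 and 178 TPM. The citrate and glyoxylate cycles had 0 of 20 members higher and 5 lower, with mitochondrial malate dehydrogenase (gene05181) at 792 and 292 TPM and aconitase (gene01839) at 476 and 718 TPM. The proteasome had 0 of 40 members higher and 14 lower, autophagy and vacuole genes 0 of 59 and 13, and mitochondrial ribosomal proteins 0 of 58 and 14. The lower shares of oxidative phosphorylation (27.7%), the citrate and glyoxylate cycles (25.0%) and mitochondrial ribosomal proteins (24.1%) were near the 24.4% of all genes, and that of autophagy and vacuole genes was below it. After rescaling the citrate and glyoxylate cycles had 2 higher and 1 lower, the proteasome 1 higher and 6 lower, autophagy and vacuole genes 2 higher and 9 lower and mitochondrial ribosomal proteins 2 higher and 5 lower. Nitrogen uptake had 3 of 26 higher and 9 lower, with ammonium transporter 1 (gene07015) at 36.3 and 196 TPM. Of 10 storage carbohydrate genes 0 were called in either direction.

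Part of the genes of ribosome assembly and of nuclear division was higher. In ribosome biogenesis 24 of 91 members were higher (26.4%) and 4 lower, and the median was 0.54 as deposited and 0.89 after rescaling. The nucleolar GTPase gene09526 stood at 13.2 and 57.96 TPM and the processing factor FCF1 (gene04266) at 25.9 and 110.2 TPM. Both were as high at 19 °C, at 70.5 and 118 TPM. Mitosis and cell division had 14 of 54 members higher (25.9%) and 6 lower. The kinetochore gene Sos7 (gene02846) stood at 7.53 and 34.1 TPM, the cyclin gene10501 at 7.83 and 25.8 TPM and condensin subunit 3 (gene10488) at 15.7 and 47.4 TPM, while the checkpoint gene mad2 (gene03059) stood at 86.7 and 24.8 TPM. DNA replication genes had 5 of 52 higher and 8 lower as deposited, which turned to 13 higher and 4 lower after rescaling. The helicase mcm7 (gene04329) stood at 36.5 and 161 TPM, the large chain of ribonucleotide reductase (gene03460) at 49.8 and 158 TPM and a DNA ligase (gene10065) at 11.8 and 141 TPM. These 3 hits are among the 5 higher members and were high under both scalings, while the list turned. The ligase hit gene10065 carries the KEGG term RFC1, a subunit of replication factor C. The small reductase chain (gene05532) was within 2-fold, at 323 and 304 TPM. Among the 8 lower members, a DNA ligase 4 hit (gene10537) stood at 12.9 and 3.78 TPM. Replication factor C subunit 4 (gene07695) stood at 25.7 and 8.01 TPM, and both stayed lower after rescaling. DNA repair had 9 of 57 higher (15.8%) and 6 lower (10.5%), against 14.1% and 24.4% of all genes, and the core histones 1 of 8 each way. Histone H3 (gene01011) stood at 2150.3 and 963 TPM and histone H2A.Z (gene05235) at 266 and 701 TPM. Translation factors had 5 of 45 members each way and 11 higher and 3 lower after rescaling. Transfer RNA ligases had 2 of 37 higher and 10 lower, which turned to 7 higher and 3 lower.

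Chaperones and redox enzymes were split. Among heat shock proteins and chaperones 14 of 62 were higher (22.6%) and 10 lower (16.1%), or 22 higher and 6 lower after rescaling. Over all tested genes the deposited shares were 14.1% higher and 24.4% lower. HSP90 (gene07764), which in fungi also stabilises calcineurin, stood at 1235 TPM at day 14 and 3133 TPM at day 18 and 25 °C, with 1277 TPM at 19 °C and 485 TPM in the wild type. The endoplasmic reticulum chaperone BiP (gene09774) stood at 228 and 922 TPM, with 184 TPM at 19 °C and 317 TPM in the wild type. A 30 kDa heat shock protein (gene08146) stood at 1179.5 and 6192 TPM and was similar at 19 °C, at 5916 TPM. The kinase co-chaperone Cdc37 (gene09182) stood at 91.7 and 21.01 TPM.

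In the antioxidant list 12 of 64 members were higher (18.8%) and 17 lower (26.6%), against 14.1% and 24.4% of all genes. This turned to 12 higher and 9 lower after rescaling. Catalase B (gene05877), which breaks down hydrogen peroxide, stood at 47.9 TPM at day 14 and 557 TPM at day 18 and 25 °C, 11.6-fold higher, with 4.53 TPM at 19 °C and 25.96 TPM in the wild type. Catalase-1 (gene04551) and the peroxisomal catalase (gene09111) were within 2-fold, at 62.3 and 54.8 TPM and at 99.9 and 111 TPM. A catalase-like hit (gene03448) was lower, at 16.5 and 6.04 TPM, and a catalase-related peroxidase (gene06597) higher, at 11.3 and 46.5 TPM. The versatile peroxidase (gene02133) stood at 9.48 and 574 TPM, 60.6-fold higher, and at 429.8 TPM at 19 °C. Glutathione reductase (gene04609) and thioredoxin (gene06997), which keep thiols reduced, stood at 106 and 428 TPM and at 799 and 3161 TPM. Of 18 glutathione S-transferase hits 2 were higher and 11 lower. The manganese superoxide dismutase gene10272, which turns superoxide into peroxide, stood at 4608 TPM at day 14 and 516 TPM at day 18 and 25 °C, 8.94-fold lower, with 2413 TPM at 19 °C and 87.03 TPM in the wild type.

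Secreted enzymes and remaining uptake genes were mixed. Plant polysaccharide enzymes had 18 of 158 members higher and 35 lower, with an extracellular glycoside hydrolase (gene03938) at 2.68 and 133 TPM and endopolygalacturonase A (gene10082) at 26.04 and 0.18 TPM. Secreted peptidases had 13 of 85 higher and 22 lower, with the aspartic protease opsB (gene07704) at 168 and 2337 TPM. Single members of these lists thus lay far apart. Lipases and cutinases had 8 of 55 higher and 14 lower, with lysophospholipase 1 (gene09963) at 59.2 and 390.3 TPM. The shares of these lists were near the 14.1% higher and 24.4% lower of all genes. They were 11.4% and 22.2% for plant polysaccharide enzymes, 15.3% and 25.9% for secreted peptidases and 14.5% and 25.5% for lipases and cutinases. Amino acid and peptide transporters had 19 of 77 higher (24.7%) and 12 lower (15.6%). Among them the peptide transporter PTR2 (gene00447) stood at 17.4 and 398 TPM and a methionine permease (gene03707) at 1.68 and 65.6 TPM. Amino acid permease 2 (gene01425) stood at 24.3 and 1.29 TPM. Transporters of this list thus lay far apart as well. Phosphate and sulfate uptake had 4 of 15 higher and 3 lower, and ABC transporters 6 of 33 higher and 7 lower. Fatty acid synthesis had 3 of 17 higher (17.6%) and 2 lower (11.8%). A lipid hydroxylase hit of the FAH12 type (gene00800) stood at 3.34 and 116 TPM, with 96.9 TPM at 19 °C.

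Pigment, secondary metabolite and developmental lists were mixed. Melanin genes had 4 of 19 members each way, with scytalone dehydratase (gene06769) at 1291 and 557 TPM and a tyrosinase (gene08042) at 9.97 and 89.02 TPM. Polyketide and nonribosomal peptide synthases had 3 of 17 higher (17.6%) and 4 lower (23.5%), with PKS1 (gene01398) at 82.6 and 118 TPM. As deposited neither list had a clear majority in one direction. After rescaling melanin genes had 6 higher and 2 lower, and the synthases 3 each way. Zinc cluster transcription factors had 9 of 81 higher (11.1%) and 16 lower (19.8%), with an ABC transporter regulator hit (gene06738) at 18.6 and 167 TPM. The sterol regulator hit gene06736, which is not in that list, stood at 12.9 and 349 TPM. Septins, tubulin and motor proteins had 1 of 63 higher and 15 lower (23.8%, against 24.4% of all genes), with cofilin (gene05419) at 1435 and 603 TPM. Sporulation and surface proteins, markers of other cell forms, had 1 of 15 higher and 2 lower, with conidiation protein 10 (gene06873) at 688 and 635 TPM and a summed level of 1298 TPM at day 14 and 1183 TPM at day 18 and 25 °C.

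The library of the same mutant at day 18 and 19 °C gives a further reference, as values without a test. Summed over ribosome biogenesis genes, the level was 2582 TPM at day 14, 4252 TPM at 19 °C and 3846 TPM at 25 °C. Heat shock proteins and chaperones summed to 18929 TPM at day 14, 31659 TPM at 19 °C and 32549 TPM at 25 °C. In these sums, as for siderophore synthesis above, the day 18 libraries lay closer to each other than to day 14. Single chaperones differed. HSP90 at 19 °C (1277 TPM) lay near day 14 (1235 TPM), while the 30 kDa heat shock protein gene08146 at 19 °C (5916 TPM) lay near 25 °C (6192 TPM). Calcium genes summed to 1649 TPM at day 14, 1778 TPM at 19 °C and 5639 TPM at 25 °C. DNA replication genes summed to 1538 TPM at day 14, 951 TPM at 19 °C and 2069.8 TPM at 25 °C. For mitosis and cell division the sums were 1266 TPM at day 14, 689.7 TPM at 19 °C and 1549 TPM at 25 °C. In these lists the 19 °C library lay nearer to day 14 than to 25 °C or below both. Sugar transporters summed to 5532 TPM at day 14, 2308 TPM at 19 °C and 4512 TPM at 25 °C, with HXT1 alone at 795 TPM at 19 °C.

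The named genes with the largest ratios were a carbohydrate-binding-like gene (gene04742), at 0.38 and 159 TPM, and CRZ1, followed by the versatile peroxidase, the Nedd-4 hit and the cation ATPase described above. A multicopper oxidase of the ptaK type (gene05236) stood at 19.6 and 747 TPM and UDP-glucuronic acid decarboxylase (gene05779), which makes UDP-xylose, at 8.33 and 333 TPM. Mannitol dehydrogenase (gene04859) stood at 1.01 and 61.6 TPM. At the other end, OXR1 (gene01963) stood at 559.9 and 9.12 TPM, 61.4-fold lower, and acetamidase (gene05613) at 453 and 23.2 TPM. OXR1 was at 8.62 TPM at 19 °C and 109 TPM in the wild type. Of the genes at 10 TPM or more at day 14, 27 were listed at 0 at day 18 and 25 °C, and 9 showed the reverse. Among the 27 were the translation factor subunit EIF3B (gene07193), at 85.2 TPM at day 14, and RNA polymerase II subunit 12 (gene00348), at 29.9 TPM, which cells need to grow, so a listed 0 is not read as absence.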

How the data were processed

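Per the labels, total RNA from mycelium was made into libraries with a SMARTER mRNA-Seq kit. The authors deposited TPM values to 2 decimals for 4 libraries; which aligner, counter, genome build and annotation they used is not given in the sources used here. Columns were matched by library name and groups by title. Python 3.11.15, pandas 2.3.3 and numpy 2.4.6 were used. Ratios were log2(TPM + 1) differences over genes at 1 TPM or more in at least 1 of the 2 libraries, with 2-fold calls and no test, since TPM are not counts and each group has 1 library. Lists were matched on names, KEGG terms and domains. Members and lists were chosen with earlier results of these data known. Genes named in the text were those with the 15 largest and the 15 smallest ratios among genes with a hit name and 10 TPM or more, the 2 largest, 2 smallest and 2 most abundant of each list, and the efu genes, and 62 more were chosen after their values were seen. A few further hits, given beside genes of the same name or class, were also chosen after their values were seen. They are not in the counts of named genes below. The calculation was tested on simulated data. Alternatives changed the pseudocount, filter, scaling and threshold.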

Additional observations from a re-analysis of the deposited data

How the results depend on the processing

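Both counts of called genes stayed within 1.5 times with a filter of 10 TPM or none, a pseudocount of 0.1 or 5, and rescaling without the 20 highest genes, at 950 to 1481 higher and 1533 to 2574 lower. Median-ratio rescaling gave 1364 lower. The 4-fold threshold, stricter by construction, gave 407 higher and 432 lower. Leaving out genes listed at 0 in either library (1263 and 2141) and the very short proteins (1299 and 2226) was chosen after seeing the data. The deposited medians of 5 of 42 lists changed sign after median-ratio rescaling, and 0 did without the 20 highest genes. Of 219 named genes past 2-fold, 206 stayed past it the same way after median-ratio rescaling, and 0 reversed under the 4 alternatives run on them. The depth is unknown, so low values carry an unknown counting error. No paired analysis was possible because each group has 1 library.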

Other observations

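KEGG pathways with at least 15 tested genes, ranked by median log2 ratio after the values were seen, added groups not described above. The lowest of 89 was pentose and glucuronate interconversions, with 6 of 38 members higher and 21 lower and a median of -1.22. The degradation of valine, leucine and isoleucine had 1 of 42 higher and 22 lower, butanoate metabolism 1 of 20 and 11 and, at equal medians, fructose and mannose metabolism 4 of 37 and 17 and glycerolipid metabolism 1 of 37 and 18. At the other end, below ribosome biogenesis, homologous recombination had a median of 0.40 with 5 of 17 higher and 2 lower, DNA replication 0.28 with 4 of 35 each way, and the yeast MAPK signalling pathway 0.19 with 13 of 66 higher and 3 lower.

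Called genes also lay in runs of consecutive gene numbers. Runs of 4 or more numbered 15 in the higher direction and 49 in the lower. The longest was gene04742 to gene04749, with 8 genes higher, among them a palmitoyltransferase akr1 hit (gene04745) at 22.4 and 178 TPM and 2 genes without a name, gene04746 at 19.5 and 377 TPM and gene04747 at 1.06 and 202 TPM. A run of 5, gene05824 to gene05828, held the channel TOK1, the hemophore cfmA and the manganese lipoxygenase gene05827 at 19.6 and 234 TPM. Another of 5, gene00726 to gene00730, held a flotillin hit (gene00728) at 30.6 and 672 TPM. A lower run of 6, gene02025 to gene02030, held 3 P450 hits, led by AN1598 (gene02028) at 3057 and 737 TPM. The table does not say whether genes with consecutive numbers are neighbours in the genome.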
